A study of Arabidopsis thaliana with 12 samples.

Results

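The CYP71B genes of Arabidopsis code for cytochromes P450, and the 10 described here are CYP71B21, CYP71B22, CYP71B23, CYP71B24, CYP71B25, CYP71B26, CYP71B34, CYP71B35, CYP71B36 and CYP71B37. They were listed by name, with earlier results of these data known, and their signals do not enter the rule. Each of the 10 had exactly 1 probe set that the annotation gives to a single gene, so all 10 were measured. They are 10 of 13356 genes with such a probe set, and a further 8 genes named CYP71B had one but are not among the 10. The source was Arabidopsis thaliana of ecotype Col-0, whose roots were taken at an age of 5 days, with no treatment other than growth in continuous light named in the labels. All groups shared the pCO2:YFP-H2B reporter, in which the promoter of the cortex gene CO2 drives a fluorescent histone. The histone marks the nuclei, and whether the promoter was still active in them when sorted was not tested. Nuclei were separated by DNA content into the classes 2C, 4C, 8C and 16C, each a doubling of the class before, and their nuclear RNA was amplified and hybridised to Affymetrix ATH1 arrays. There were 3 arrays per class, 12 in all, which the labels call biological replicates. Their plants and sorts are not named, so p-values measure only the spread between these arrays.

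Cytochromes P450 are heme enzymes that insert an oxygen atom into small molecules, using electrons passed on by a reductase. Plants have large families of them, and the CYP71 family serves mostly specialised metabolism, including defence compounds. The best known member of the subfamily is PAD3, also called CYP71B15, which makes the phytoalexin camalexin in Arabidopsis. No substrate is given here for the 10 genes. Nuclei of 8C and 16C arise through the endocycle, in which DNA is copied without division, and growing root cortex cells are known to enter it. Signals below are log2 values made by RMA. They allow a gene to be followed from array to array, but levels of different probe sets cannot be set against each other as transcript amounts. Fewer cells with a transcript and less of it per nucleus cannot be told apart.

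The 10 genes split into 2 bright and 8 dim ones. A gene was called bright where its mean over the 12 arrays lay above the 60th percentile of all 22746 probe sets compared, a signal of 6.003. CYP71B26 had a mean of 8.83, at percentile 91.5, and CYP71B34 had 6.10, at percentile 61.2 and so just inside the limit. The next below it was CYP71B23 with 4.95, at percentile 43.1. CYP71B37 and CYP71B22 had means of 4.88 each, and CYP71B25 had 4.07, at percentile 18.4. The other 4, CYP71B21, CYP71B24, CYP71B35 and CYP71B36, had means of 3.62, 3.71, 3.64 and 3.72, all between percentiles 3.86 and 6.37. Whether these dim probe sets measured any transcript cannot be said, since no detection call goes with the signals. CYP71B26 lay above the limit on all 12 arrays, with signals from 7.94 to 10.4. CYP71B34 was bright through its 8C arrays and was below the limit without 8C replicate 1 or without 8C replicate 3.

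**Figure D1:**
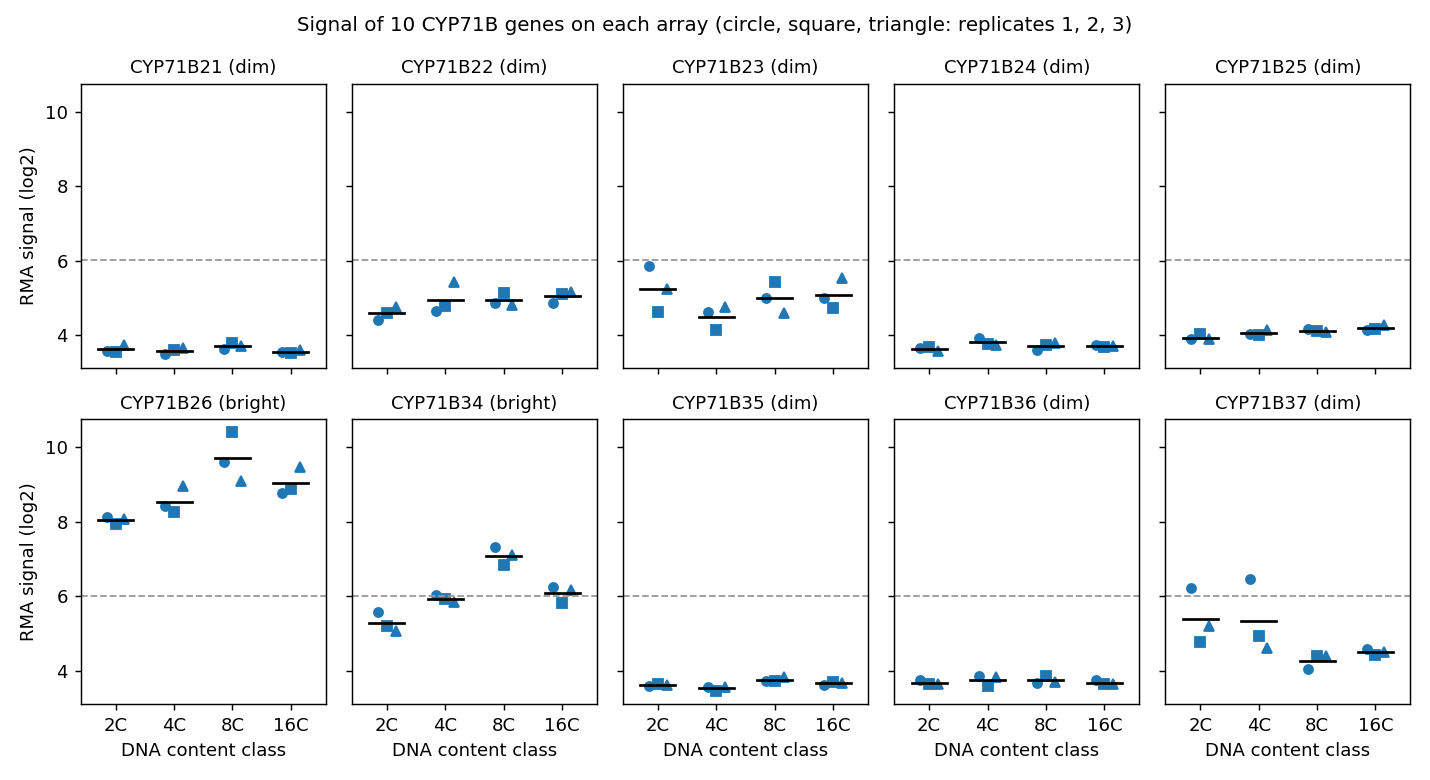
Log2 RMA signal of each of the 10 genes on the 12 arrays, by DNA content class. Symbols stand for replicate numbers, black lines for class means of 3 arrays, and the dashed line for the limit of 6.003 between bright and dim. CYP71B26 and CYP71B34 have their highest class means in 8C, and the 2C and 4C arrays of replicate 1 stand above the others for CYP71B37.

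Of the bright genes, CYP71B34, which was just inside the limit, stood directly beside a dim gene on the chromosome. In the TAIR10.1 gene table all 10 lie on chromosome 3 within a run of 19 genes, from CYP71B21 to CYP71B37. The run holds 3 further CYP71B genes (CYP71B3, CYP71B4 and the pseudogene CYP71B33), 4 other protein-coding genes and 2 other pseudogenes. None of these had a probe set of its own in the annotation used, which left 8730 of the 22746 probe sets without a gene name. CYP71B34 and CYP71B35 are direct neighbours, as are CYP71B35 and CYP71B36, and of these 3 CYP71B34 alone was bright. CYP71B26 stands between CYP71B4 and CYP71B33. Likeness of sequence among neighbouring copies was not assessed, and the part of unlisted copies in a signal was not tested.

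**Figure D2:**
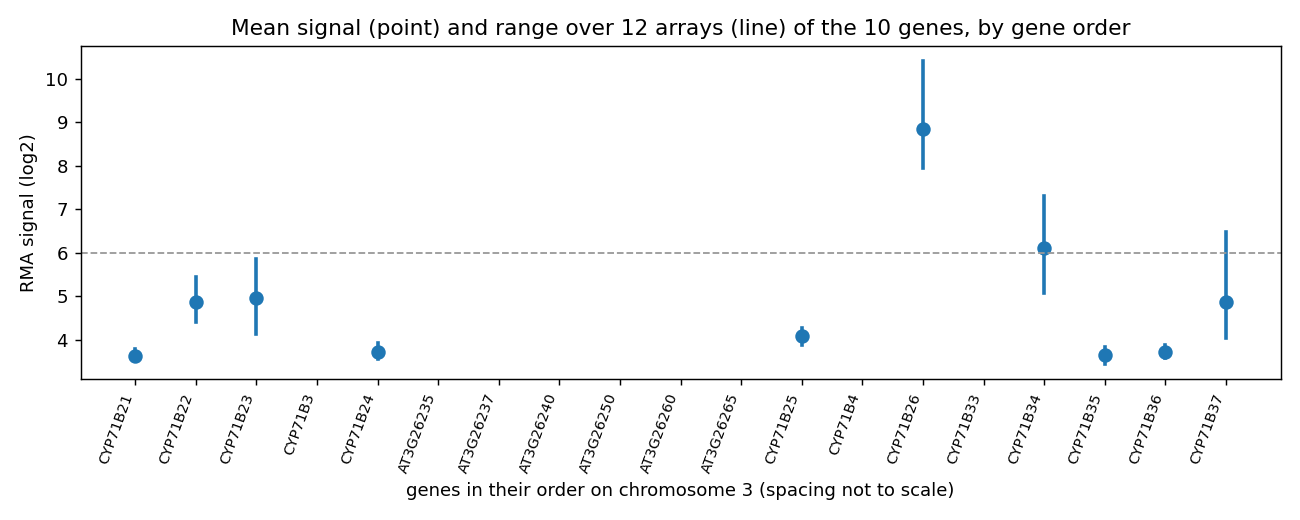
The 10 genes at their place in the run of 19 genes on chromosome 3, with spacing not to scale. Points show the mean log2 RMA signal over 12 arrays, lines the range from the lowest to the highest array, and the dashed line the limit of 6.003. Places without a point had no probe set of their own in the annotation used. CYP71B26 and CYP71B34 have mean signals above the limit, and the nearest measured genes outside this pair, CYP71B25 and CYP71B35, have means of 4.07 and 3.64.

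CYP71B26 and CYP71B34 differed between the classes by the test over all 4 classes. The moderated F test in limma called these 2 of the 10 genes, beside 17.3% of all probe sets, so the share of members called was near the background. CYP71B34 had an adjusted p of 0.000568 and CYP71B26 of 0.0191. At an unadjusted p below 0.05 the count was also 2. With an intensity trend and robust variances the dim CYP71B35 was called as well (adjusted p = 0.0496). Since CYP71B34 reached the bright limit only with its high 8C arrays, its brightness and its difference between classes are not independent, and bright and dim genes were not compared in how often they were called. Of the 10 genes, 4 had their highest class mean in 8C, beside 34.3% of all probe sets, and 6 had their lowest in 2C, beside 36.5%.

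CYP71B34 had signals of 5.58, 5.20 and 5.07 in 2C and of 6.02, 5.93 and 5.84 in 4C, in the order of the replicate numbers. It had 7.31, 6.85 and 7.11 in 8C and 6.24, 5.83 and 6.16 in 16C. The 8C arrays lay above every other array and the 2C arrays below every other, whereas those of 4C and 16C overlapped. From 2C to 4C the mean went from 5.29 ± 0.26 to 5.93 ± 0.09 (SD, n = 3), a change of 0.65 ± 0.17 (SE) that did not pass (limma adjusted p = 0.116). It then rose by 1.16 ± 0.17 from 4C to 8C, or 2.23-fold (adjusted p = 0.00367). It fell by 1.01 ± 0.17 from 8C to 16C, or 2.02-fold (adjusted p = 0.0412). The 16C mean of 6.08 ± 0.22 differed from that of 4C by 0.14 ± 0.17 (adjusted p = 0.721), with a 95% interval that lay on both sides of 0. It was above that of 2C by 0.79 ± 0.17 (adjusted p = 0.0115), and 8C exceeded 2C by 1.80 ± 0.17 (adjusted p = 0.000118). The order was thus 2C, 4C, 16C and 8C. In it 2C and 4C had arrays that lay apart but did not pass the adjusted threshold, and 4C and 16C overlapped.

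CYP71B26 had signals of 8.14, 7.94 and 8.06 in 2C, 8.41, 8.26 and 8.96 in 4C, 9.62, 10.4 and 9.10 in 8C, and 8.77, 8.88 and 9.46 in 16C. The 2C arrays lay below all others, the 8C arrays lay above all of 4C, and those of 16C overlapped both 4C and 8C. The mean went from 8.05 ± 0.10 (SD, n = 3) in 2C to 8.54 ± 0.37 in 4C, a change of 0.50 ± 0.31 (SE, limma adjusted p = 0.521). It rose by 1.16 ± 0.31 from 4C to a mean of 9.71 ± 0.66 in 8C, or 2.24-fold (adjusted p = 0.0425). The 16C mean was 9.04 ± 0.37, which differed from 8C by -0.67 ± 0.31 (adjusted p = 0.483) and by -0.32 without 8C replicate 2, from 4C by 0.50 ± 0.31 (adjusted p = 0.45) and from 2C by 0.99 ± 0.31 (adjusted p = 0.06). From 2C to 8C it rose by 1.66 ± 0.31 (adjusted p = 0.00453), or 3.16-fold. The order of the class means was the same as for CYP71B34, but no pair of neighbours in it passed the adjusted test.

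**Figure D3:**
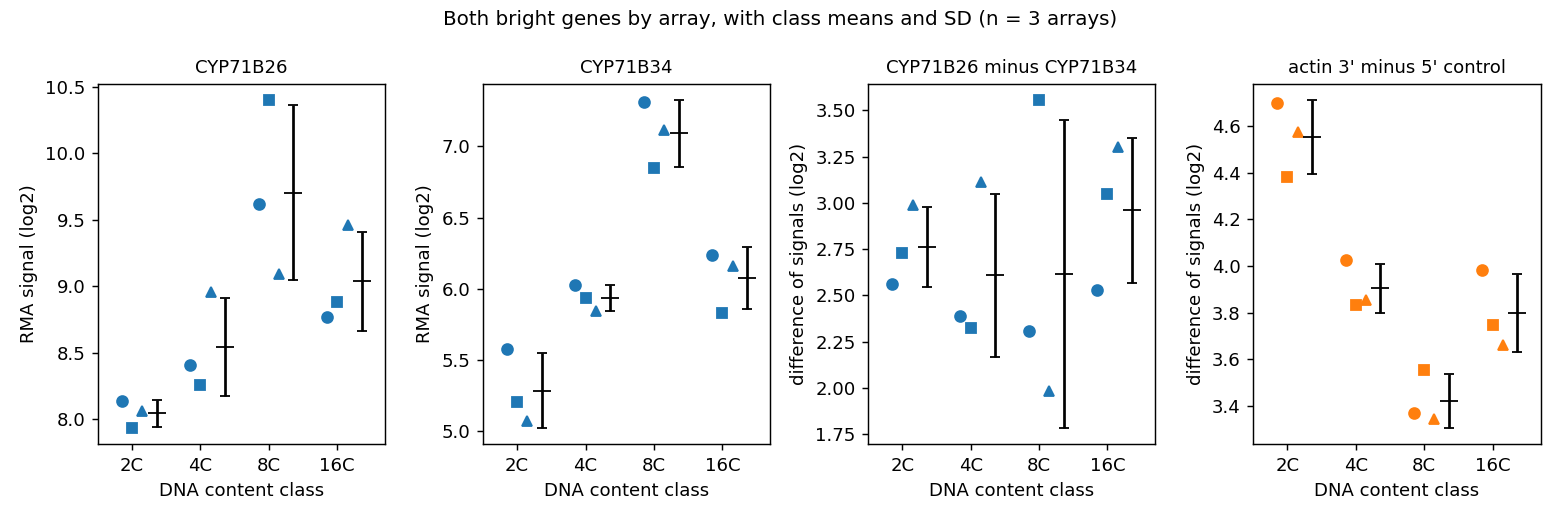
Signals of CYP71B26 and CYP71B34 on each array, their difference within each array, and the actin 3' minus 5' difference of each array, all in log2 units by DNA content class. Symbols stand for replicate numbers and black bars for class means with their SD over 3 arrays. Both genes have their highest class mean in 8C, at 9.71 and 7.09, where the actin difference is lowest, with a mean of 3.42. The 8C and 16C arrays overlap for CYP71B26 and lie apart for CYP71B34.

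These calls did not all hold in the same way. The rise of CYP71B34 from 4C to 8C passed under 22 of 23 alternative settings, and without any one array its change lay between 1.05 and 1.28 with adjusted p of at most 0.0175. That of CYP71B26 passed under 9 of 23. It was 0.82 without 8C replicate 2 (adjusted p = 0.0923), and it also failed without 4C replicate 1, 4C replicate 2, 8C replicate 1, 2C replicate 2, 2C replicate 3, 16C replicate 1 or 16C replicate 2, and with the replicate number as a fixed block (adjusted p = 0.0694). The rise of CYP71B26 from 2C to 8C passed under 21 of 23 settings and that of CYP71B34 under 22. The fall of CYP71B34 from 8C to 16C passed under 8 of 23. Its size was between 0.89 and 1.14 with any one array left out, but the adjusted p was above the threshold without 9 of the 12 arrays, reaching 0.201 without 16C replicate 2. The higher level of CYP71B34 in 16C than in 2C failed without 16C replicate 1 (adjusted p = 0.052).

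Whether both bright genes followed the same course was asked of their difference within each array. The 2C arrays had a mean CYP71B26 minus CYP71B34 of 2.76 ± 0.22 (SD, n = 3), those of 4C 2.61 ± 0.44, those of 8C 2.62 ± 0.83 and those of 16C 2.96 ± 0.39. The difference did not separate the classes (exact permutation test over the 4 classes with 369600 assignments, p = 0.816). This comparison was added after seeing the data, in which both genes had their highest class mean in 8C. CYP71B34 also counted as bright only through its 8C arrays, so the choice of the pair favoured a difference alike in all classes. The test does not show that they acted alike, since the 8C values ranged from 1.98 to 3.55. Without 8C replicate 2 the exact permutation p was 0.172. Over the 12 arrays the 2 signals correlated with Pearson's r = 0.788, as a description of arrays that share their classes. Within 2C, replicate 1 was the highest array for both genes. In 4C replicate 3 and in 8C replicate 2 were the highest for CYP71B26 and the lowest for CYP71B34. In 16C replicate 3 was the highest for CYP71B26 and lay between the others for CYP71B34. After the class means were taken out r was -0.27, which was not tested. In the same deviations CYP71B26 had its highest correlations among the members with CYP71B23 (r = 0.74) and CYP71B22 (r = 0.672), both dim. These were picked as the highest of its pairs and were not tested.

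Some control values moved with both bright genes and others did not. The 3' minus 5' difference of the actin control, which grows where RNA or its amplified copies are shortened, had a 2C mean of 4.55 ± 0.16 (SD, n = 3). It was lower in 4C and 16C, 3.90 ± 0.11 and 3.796 ± 0.17, and lowest in 8C, 3.42 ± 0.12, the reverse of the order of both genes. The same difference of the GAPDH control did not follow that order, with a lowest mean of 4.85 ± 0.38 in 2C and a highest of 5.58 ± 0.09 in 16C, while 4C had 5.20 ± 0.32 and 8C had 5.05 ± 0.17. With the actin difference as a covariate the changes from 4C to 8C were 1.32 ± 0.31 (SE) for CYP71B34 (limma adjusted p = 0.352) and 1.36 ± 0.59 for CYP71B26 (adjusted p = 0.639). Both were as large as without this covariate but had wider errors. Of all probe sets that fit called 0 from 4C to 8C, against 2251 without the covariate. The bacterial poly-A spikes had class means of 10.9 ± 0.52 and 10.6 ± 0.49 in 2C and 4C, and of 9.10 ± 1.11 and 9.03 ± 0.34 in 8C and 16C. With their mean as a covariate the change of CYP71B34 from 4C to 8C was 1.20 ± 0.24 (adjusted p = 0.0427), and that of CYP71B26 went down to 0.40 ± 0.25 (adjusted p = 0.431). With the same covariate CYP71B26 in 16C exceeded 2C by 0.03 ± 0.28 (adjusted p = 0.971), against 0.99 without it. The part of RNA quality and of RNA amount in these changes cannot be told apart from DNA content where they move with the classes.

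Of the cortex markers 2 of 3 were measured. JKD, a transcription factor of the ground tissue, had class means of 5.51, 5.94, 6.34 and 5.70 from 2C to 16C, lowest in 2C and highest in 8C like both bright genes, but with 4C above 16C (F test adjusted p = 0.00485). The gene of the reporter's own promoter, AT1G62500 (CO2), was dim, with class means between 4.02 and 4.25. The mean of both markers lay between 4.61 and 5.38 on the 12 arrays. No marker of the endodermis (0 of 8) or the stele (0 of 5) had a probe set of its own in the annotation used. Of the epidermis and root hair markers 2 of 7 were measured, the expansins EXPA7 and EXPA18, and their mean lay between 4.74 and 5.06 in 2C, 4C and 8C and between 5.60 and 5.76 in 16C. LHCB4.1, a light-harvesting protein and the 1 of 3 shoot markers measured, lay between 8.05 and 9.88 in 2C and 4C, between 6.20 and 7.66 in 8C and between 8.14 and 8.42 in 16C. The part of other cell types in the changes of the CYP71B genes was not tested. On the side of the arrays, those of 16C replicates 1 and 2 correlated at 0.996 across probe sets, above 0.983 for any other pair of one class. With both averaged, 1 member was called from 4C to 8C and 0 from 8C to 16C.

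Along the fitted slope per doubling of DNA content, 3 of the 10 genes rose and 0 fell in limma, beside 9.85% and 11.7% of all probe sets that rose and fell. The slope sums up 4 classes in 1 value, and for both bright genes the last step went the other way. The log2 signal of CYP71B26 went up by 0.41 ± 0.10 (SE) per doubling (adjusted p = 0.0147) and that of CYP71B34 by 0.35 ± 0.05 (adjusted p = 0.00134). The third was the dim CYP71B25, by 0.08 ± 0.03 (adjusted p = 0.0466). Its class means were 3.93 ± 0.07, 4.06 ± 0.08, 4.12 ± 0.03 and 4.18 ± 0.07 (SD, n = 3), all near the bottom of the signal range. Its arrays of 16C, at 4.12, 4.16 and 4.26, lay above those of 2C, at 3.90, 4.02 and 3.88. This slope passed under 6 of 21 alternative settings, was 0.16 with the scaling to reference genes and, with the actin covariate, was 0.00. The median slope of the 10 genes was 0.02, and over all probe sets it was also 0.02.

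**Figure D4:**
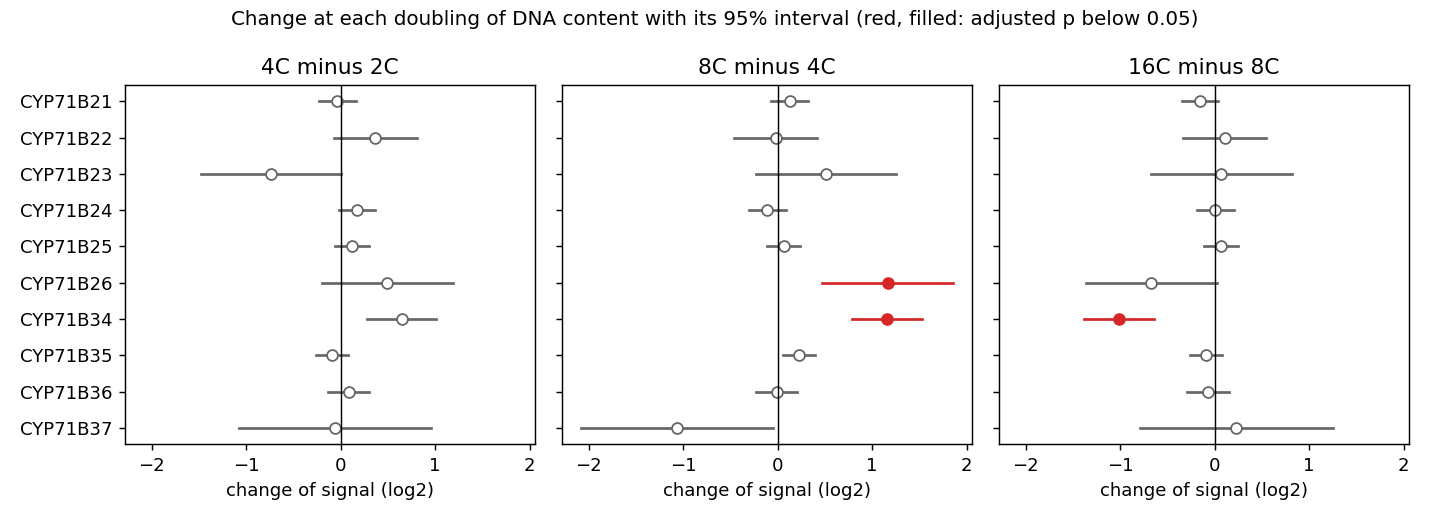
Change of the log2 RMA signal of the 10 genes at each doubling of DNA content, with its 95% interval from the limma fit. Red filled points have an adjusted p below 0.05 and open points do not. CYP71B26 and CYP71B34 are higher in 8C than in 4C, by 1.16 each, and CYP71B34 is lower in 16C than in 8C, by 1.01.

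At the single steps the calls were few. From 2C to 4C limma called 0 of the 10 genes, beside 0.602% of all probe sets, with 1 at an unadjusted p below 0.05 (CYP71B34). From 4C to 8C, 2 were higher, beside 4.73%, and 0 lower, beside 5.17%. From 8C to 16C, 1 was lower, beside 0.0528%, which is 12 of the 22746 probe sets, and 0 higher, beside 0.207%. CYP71B34 was 1 of 7 probe sets, 0.0308% of all, called both higher in 8C than in 4C and lower in 16C than in 8C. Between 2C and 16C, 1 member was higher, beside 6.18%, and between 2C and 8C 2 were, beside 10.3%. Between 4C and 16C limma called 0, beside 3.57%, with 0 at an unadjusted p below 0.05. The arrays of the 2 classes did not overlap for 4 of the 10 genes at each of the 3 steps, beside 16% of all probe sets for the step to 4C, 31.7% for that to 8C and 21.5% for that to 16C. The median size of the members' changes was 0.15, 0.18 and 0.10 at these steps, against 0.15, 0.20 and 0.13 over all probe sets. Comparisons that have a class in common share its arrays.

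CYP71B37 was the dim gene with the widest range. It had signals of 6.22, 4.77 and 5.20 in 2C, 6.47, 4.93 and 4.61 in 4C, 4.04, 4.38 and 4.39 in 8C, and 4.57, 4.43 and 4.50 in 16C. The arrays of replicate 1 stood above the other arrays of their class in 2C and 4C, and the 8C and 16C arrays lay below all of those classes. Its change from 4C to 8C was -1.06 ± 0.46 (SE, limma adjusted p = 0.174), and its slope was -0.37 ± 0.15 (adjusted p = 0.0916), so that neither passed. Without 4C replicate 1 the change from 4C to 8C was -0.50, and that from 2C to 8C, of -1.12, then passed (adjusted p = 0.0326). The same array of 2C was also the highest for CYP71B23, which had 5.85, 4.62 and 5.23 in 2C and 4.61, 4.13 and 4.75 in 4C. In 8C it had 5.00, 5.43 and 4.59, and in 16C 4.98, 4.71 and 5.52. Its classes overlapped throughout, and its F test adjusted p was 0.365. CYP71B22 had its lowest class mean in 2C, 4.59 ± 0.17 (SD, n = 3), and its highest in 16C, 5.04 ± 0.16. The arrays of these 2 classes lay apart, but the change of 0.45 ± 0.20 (SE) did not pass (adjusted p = 0.153).

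The other 4 genes had narrow ranges of signal. Over the 12 arrays CYP71B21 ranged from 3.50 to 3.796, CYP71B24 from 3.56 to 3.92, CYP71B35 from 3.45 to 3.83 and CYP71B36 from 3.59 to 3.87. Their F test adjusted p were 0.52, 0.461, 0.192 and 0.82. Of these, CYP71B35, the direct neighbour of CYP71B34, had the class mean farthest from the one before it, with 3.53 ± 0.07 (SD, n = 3) in 4C and 3.76 ± 0.07 in 8C. The arrays of these classes lay apart, and the change of 0.23 ± 0.08 (SE) did not pass (adjusted p = 0.0871), except with an intensity trend and robust variances (adjusted p = 0.0237). Such small ranges at the bottom of the signal scale do not show that the genes were silent or steady.

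Genes related to the 10 by name or pathway were seen through few members. A gene counted here and below as not measured may have a probe set that the annotation used left without a gene name. Of 25 other genes named CYP71B, 8 had a probe set of their own, of which 3 were bright, and the F test called 0, with 1 at an unadjusted p below 0.05. This was CYP71B29, with class means of 6.57, 7.01, 7.30 and 7.15 (F test adjusted p = 0.141). Its highest class mean was in 8C, as for 34.3% of all probe sets. A probe set shared by CYP71B19 and CYP71B20, which precede CYP71B21 on the chromosome, had class means between 5.65 and 5.91 (F test adjusted p = 0.698). Of 200 other P450 genes known by a CYP symbol, 4 were measured and the F test called 0, with 1 at an unadjusted p below 0.05. This was CYP51G2, of the family of sterol demethylases, with class means of 5.55, 5.95, 5.15 and 4.94 (adjusted p = 0.149).

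Of 17 genes of camalexin and indole metabolism 2 were measured, and PAD3 was not among them. AT1G26380 (FOX1), an oxidase of an indole defence pathway, was dim and rose along the slope by 0.11 ± 0.04 per doubling (SE, adjusted p = 0.0472), while CYP71B6, an enzyme that acts on indole acetonitrile, was bright and did not pass (slope 0.13 ± 0.07, adjusted p = 0.198). Of 9 genes listed as possible redox partners of P450 enzymes 1 was measured, the diflavin reductase AT3G02280. It fell along the slope by 0.16 ± 0.04 per doubling (adjusted p = 0.0297), and whether it serves P450 enzymes was not tested. Of 19 genes that lie between or beside the 10 on the chromosome and are no members, 3 had a probe set of their own. Of these, AT3G26370 fell along the slope by 0.16 ± 0.05 per doubling (adjusted p = 0.0358), and the F test called 0 of the 3, with 1 at an unadjusted p below 0.05.

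The genes most like both bright members in their pattern were picked by Pearson's r over the 12 arrays among 13355 other genes. For CYP71B34 these were AT4G00170 (r = 0.957), AT3G09410 (r = 0.948) and AT5G43910 (r = 0.947). All 3 had their highest class mean in 8C, at 8.38, 9.57 and 8.05, and their lowest in 2C, at 7.55, 8.11 and 6.60. For CYP71B26 they were AT3G48080 (r = 0.941), AT1G09300 (r = 0.938) and AT2G44360 (r = 0.938), with class means of 6.18, 7.37 and 9.33 in 8C and of 4.40, 6.82 and 8.36 in 2C. None of the 10 CYP71B genes was among the nearest 3 of either. These values describe the 12 arrays, which share their classes, and carry no test.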

How the data were processed

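Nuclear RNA of 4 DNA content classes was measured on 12 arrays, 3 per class. Per the submitters' processing notes the authors used RMA; the deposited signals are on a log2 scale, as the size of the values shows. The version of RMA is not given in the sources used here. RMA makes the distributions of arrays alike, so a change of total RNA per nucleus cannot be seen. The table held 0 columns other than those of the 12 samples.

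The 64 control probe sets were left out, and the other 22746 entered a linear model (lmFit and eBayes of limma 3.58.1, run under R 4.3.3) over all 12 arrays without a block, with Benjamini-Hochberg adjustment over all of them and a threshold of 0.05. Of 13513 single-gene probe sets 13436 matched the TAIR10.1 gene table by Entrez ID. A further 503 probe sets named several genes and 8730 had no gene name in the annotation used. The number of arrays limits the precision. The fit was tested on simulated data. The members, lists and alternatives were chosen with earlier results of these data known; the comparisons of 8C with 2C and of 16C with 4C and the difference of both bright genes were added after seeing the data. All members were named, as were from each list up to 4 called genes or the one with the smallest p, and the 3 genes most alike in pattern to each called member. The labels do not say that replicate numbers mark a shared sort, so the numbers were not taken as pairs and a block was an alternative. Same-numbered arrays of different classes had deviations correlated between -0.487 and 0.489, with a median of 0.11. The median for differently numbered arrays was -0.008, and these values do not decide whether the numbers mark pairs. Alternatives were a fixed and a random replicate block, an intensity trend with robust variances, filters on dim and shared probe sets, cyclic loess, scaling to 5 measured reference genes, only the arrays compared, averaging 16C replicates 1 and 2, 2 covariates, and leaving out each array.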

Additional observations from a re-analysis of the deposited data

How the results depend on the processing

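The number of members called depended on the settings as follows. With the actin difference as a covariate 0 members were called in the F test, on the slope, from 4C to 8C, from 8C to 16C, from 2C to 16C and from 2C to 8C. The limma F test then had 1 member at an unadjusted p below 0.05. Of all probe sets this fit called 162 in the F test, 0 on the slope, 0 from 4C to 8C and 1 from 8C to 16C. Without a covariate these counts were 3932, 4894, 2251 and 59, so the calls were lost for nearly all probe sets and not for the members alone. Where the mean poly-A spike signal was the covariate, the F test called 1, the slope 0, 4C to 8C 1, 8C to 16C 0, 2C to 16C 0 and 2C to 8C 1. Of all probe sets that fit called 729 in the F test, 716 on the slope, 381 from 4C to 8C and 72 from 8C to 16C. From 4C to 8C, 1 was called in place of 2 with the fixed replicate block, cyclic loess, 16C replicates 1 and 2 averaged or only the arrays compared. With the intensity trend, 3 were called in place of 2 both in the F test and from 4C to 8C, the third being CYP71B35. From 8C to 16C, 0 were called in place of 1 with the intensity trend, the scaling to reference genes, the averaged 16C arrays or only the arrays compared. From 2C to 16C, 2 were called in place of 1 with the intensity trend, without the dimmest probe sets, with the scaling or with only the arrays compared. Leaving out 1 array gave 1 to 2 calls from 4C to 8C, 0 to 1 from 8C to 16C, 0 to 2 from 2C to 16C and 1 to 4 on the slope, with 1 on the slope without 16C replicate 3, always 2 in the F test, and 2 to 3 from 2C to 8C, with 3 without 4C replicate 1, where CYP71B37 was lower in 8C. With the 75th percentile as the limit 1 member was bright in place of 2, and leaving out 1 array gave 1 to 2, with 1 without 8C replicate 1 or without 8C replicate 3. On the slope 2 were called in place of 3 with cyclic loess, the averaged 16C arrays or the fixed block, and without the dimmest probe sets, CYP71B25 among them. The fixed block changed no other count of members called, and the random block changed none. Of 16 single results followed, 3 changed sign, all with the actin covariate: the slope of CYP71B25 (-0.00022), the slope of CYP71B37 (0.44) and its step from 4C to 8C (0.36). The cause of these differences was not tested. The scaling to reference genes moved the median of all probe sets from 8C to 16C by 0.16, and the fall of CYP71B34 was then 0.86.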
